A study of Mus musculus with 1646 samples.

Results

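Mouse colon fibroblasts of cluster 5, which the study places at the base to middle of the mucosa, were compared with those of cluster 1, which it places in the middle. The members are all cells whose sample label gives cluster 5 or cluster 1 and 1 of the reporter strains with at least 10 cells in both clusters. They number 887 of the 1646 colon cells, with 46.4% of the 887 in cluster 5 and the rest in cluster 1. PdgfrbGFP mice gave 51.4% of the 887 cells, Acta2GFP mice 34.05% and PdgfraGFP mice 14.5%. Cluster 5 held 48.2%, 42.4% and 49.6% of the members of these strains, and the smallest sums are those of PdgfraGFP, with 64 and 65 cells. Cspg4dsRED mice, with 13 and 8 cells, were not part of the comparison.

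Each cell is a library of its own, made with SmartSeq2, in which the polyadenylated RNA of 1 sorted cell is copied to full-length cDNA, amplified and sequenced without molecular identifiers. The mice were adult males of 10 to 20 weeks on the C57Bl6/J background, and the cells were sorted as CD31-negative, reporter-positive events. In PdgfrbGFP mice a transgene (Tg(Pdgfrb-eGFP)) marks cells that use the *Pdgfrb* promoter. In Acta2GFP mice the *Acta2* promoter drives the reporter and elastase was added to the dissociation. In PdgfraGFP mice a nuclear histone-GFP fusion is knocked into *Pdgfra*. The methods also mention combinations of strains, and the labels name no mouse, so the sums of a strain may hold cells of several mice. The authors drew the clusters from the same counts that are compared here, so the fits describe the 2 clusters and are no independent test of them.

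The stroma of the colon crypt supports an epithelium that renews itself from stem cells at the crypt base and differentiates towards the surface. Fibroblasts deep in the mucosa are known as a source of WNT agonists and BMP antagonists, and those near the surface as a source of BMP ligands, and both lay down the matrix under the epithelium. Between these ends lie the fibroblasts of the lamina propria, to which clusters 5 and 1 belong by the study's placement.

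Counts on genes were summed per strain and cluster, giving 6 sums of 20674885 to 85478239 counts, and fitted with edgeR's quasi-likelihood test with the strain as a block. Positive log2 fold changes mean higher in cluster 5, and they are given with their standard error. A gene is called where its p-value, adjusted by the Benjamini-Hochberg method over all genes tested, is below 0.05. Results of other fits are given beside some genes, among them those of DESeq2. On simulated data of this design its false calls outnumbered its true ones at the smaller fold. At the larger fold they came near the number of true ones, so a DESeq2 call alone is weak support. A level is the mean over the cells of a strain after each cell was scaled to 500000 counts on genes. Levels of the 3 strains are always in the order PdgfrbGFP, Acta2GFP, PdgfraGFP, and they are not corrected for gene length, so they compare samples and not genes. Changes in the RNA of a gene per cell and in the share of cells that use it cannot be told apart in these sums.

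The cells of both clusters carried the fibroblast markers (*Col1a1*, *Col1a2*, *Dcn*, *Lum*, *Pdgfra*, *Dpt* and *Pcolce*) at a summed level of 9832 to 11813 in cluster 5 and 8351 to 8948 in cluster 1. The 6 mural markers, among them *Rgs5* and *Myh11*, summed to 55.1 to 102.9 in cluster 5 and 104.9 to 132.1 in cluster 1. Endothelial, immune and epithelial markers summed to at most 31.01, 16.4 and 25.2 in cluster 5 and 24.99, 24.1 and 79.9 in cluster 1, with *Cdh5*, *Ptprc*, *Cd3e* and *Cdh1* below a level of 1 in every strain. Summed levels of glial and neuronal markers (0.262 to 2.68 in cluster 5, 0.779 to 6.35 in cluster 1), of markers of interstitial cells of Cajal (7.61 to 20.5 and 19.6 to 25.6) and of mesothelial markers (4.24 to 10.4 and 0.0755 to 0.579) were below 26 in every sample, and of the mesothelial markers only *Wt1* reached a level of 1, in cluster 5. No mural, endothelial, immune, epithelial, glial, Cajal or mesothelial marker was called, and among the fibroblast markers only *Dpt* was (log2 fold change 0.81 ± 0.11, adjusted p = 0.035). The authors had removed cells with endothelial or immune signatures and cells with neither *Pdgfra* nor *Pdgfrb*. Low levels of markers of other cell types therefore follow in part from this filter.

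Of 16280 genes tested, 0.817% were called higher in cluster 5 and 0.805% were called higher in cluster 1, which is 1.62% together, and 1948 genes had an unadjusted p below 0.05. Over all genes tested 48.97% had a positive log2 fold change, which is the background for the counts of signs given for gene lists. The 1.62% called is likewise the background for the counts of calls given for those lists. The log2 fold change was at least 1 for 93.985% of the genes higher in cluster 5 and for 98.5% of those higher in cluster 1. Each called gene differed in the same direction in all 3 strains, and 90.2% and 84.7% of them did so in each of the 7 plates with at least 10 cells of both clusters. The levels of the strains did not overlap between clusters for 97.7% of the genes higher in cluster 5, against 8.08% of all genes tested, and for 96.2% of those higher in cluster 1, against 8.94%. The calls were made on the same cells, so a shared direction and a lack of overlap follow largely from the calling. They are no further support for it. Without the Acta2GFP strain edgeR called 0 genes, with 1445 at an unadjusted p below 0.05. Without the PdgfrbGFP strain it called 31 higher in cluster 5 and 21 higher in cluster 1. Among the genes with the largest differences, other annotated genes share 16.4% of the exon bases of *Angptl1*, 19.9% of those of *Gas1* and 46.7% of those of *Bmp5*, and no source used here says whether reads were counted by strand.

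**Figure D1:**
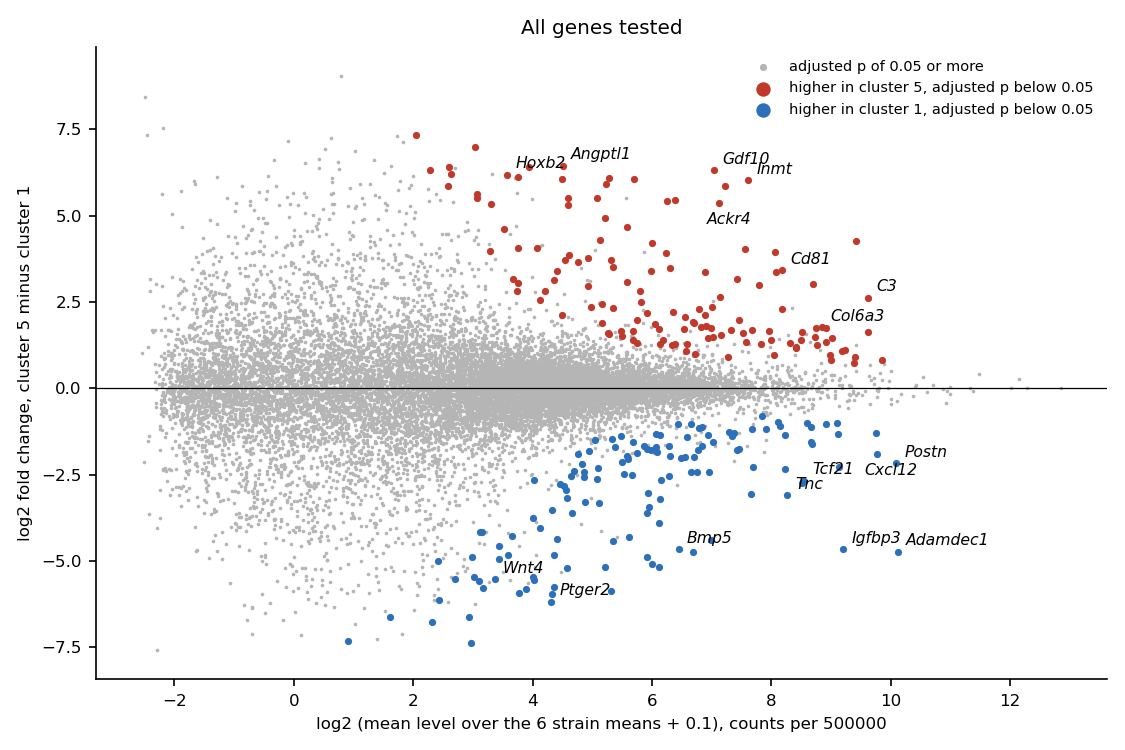
Log2 fold change (cluster 5 minus cluster 1) against the log2 of the mean level over the 6 strain means plus 0.1, in counts per 500000, for the 16280 genes tested. Red points are genes higher in cluster 5 and blue points genes higher in cluster 1 at an adjusted p below 0.05, with some named genes labelled. The differences of the called genes range from 0.74 to 7.32 and from -0.81 to -7.36.

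The 12 genes that stood highest in cluster 5 by fold, among called genes with a level of at least 20 in the higher cluster in each strain, were secreted factors, enzymes and regulators. *Gdf10*, a BMP-family ligand also known as BMP3b, had levels of 361.1, 200.9 and 206.7 in cluster 5 and 14.6, 1.78 and 2.45 in cluster 1 (log2 fold change 6.31 ± 0.63, adjusted p = 0.0166). *Angptl1*, an angiopoietin-like secreted protein, had levels of 34.2, 32.4 and 66.8 and 1.02, 0.432 and 0.762 (log2 fold change 6.44 ± 0.51, adjusted p = 0.0121). Every cluster 5 level of both genes lay above every cluster 1 level. *Inmt*, a methyltransferase that acts on indole amines, reached 408.3, 381.2 and 352.6 in cluster 5 and 22.3, 3.07 and 4.42 in cluster 1 (log2 fold change 6.03 ± 0.71, adjusted p = 0.0249). For *Pcolce2*, which enhances the processing of procollagen, the levels were 295.9, 301.2 and 270.4 against 13.5, 7.51 and 2.91 (log2 fold change 5.85 ± 0.64, adjusted p = 0.02). In both genes the cluster 5 levels varied little between strains, while PdgfrbGFP cells had the highest cluster 1 level, as they also had for *Gdf10* and *Angptl1*. *Smoc2*, a secreted calcium-binding matrix protein related to BMP antagonists, measured 64.3, 36.95 and 117.7 and 4.06, 0.806 and 1.07 (log2 fold change 5.92 ± 0.73, adjusted p = 0.0287).

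Among the other genes of this group, *Ccn5*, a matricellular protein of the CCN family, had levels of 45.2, 53.4 and 32.3 in cluster 5 and 1.66, 0.741 and 0.662 in cluster 1 (log2 fold change 6.04 ± 0.51, adjusted p = 0.0124). *Vit*, which encodes the matrix protein vitrin, had 90.9, 32.5 and 103.4 and 4.09, 1.52 and 1.096 (log2 fold change 6.08 ± 0.62, adjusted p = 0.0172). *Myoc*, which encodes the secreted protein myocilin, had 128.8, 126.1 and 46.8 and 8.90, 1.25 and 0.573 (log2 fold change 6.06 ± 0.78, adjusted p = 0.0323). These 3 matrix-associated genes did not overlap between clusters either. *Ramp1*, which pairs with the calcitonin receptor-like receptor to form the receptor for CGRP, had 69.1, 43.5 and 80.2 and 5.09, 1.77 and 3.07 (log2 fold change 5.497 ± 0.63, adjusted p = 0.0234). *Gas1*, a membrane protein that binds Hedgehog ligands, had 202.7, 130.8 and 149.97 and 8.76, 4.69 and 1.11 (log2 fold change 5.44 ± 0.81, adjusted p = 0.0462). The remaining genes encode transcription factors. *Osr2*, a zinc finger factor of mesenchymal patterning, had 46.9, 62.4 and 30.7 and 2.31, 1.47 and 0.478 (log2 fold change 5.499 ± 0.63, adjusted p = 0.0238), and its log2 ratio of levels was 0 in the PdgfrbGFP plate with 18 and 19 cells of the clusters. *Hoxb2* is described with the HOX genes.

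The 12 genes of largest fold toward cluster 1, among called genes with a level of at least 20 there in every strain, were led by a prostaglandin receptor and included signalling factors of the crypt. *Ptger2*, the EP2 receptor for prostaglandin E2, had levels of 1.42, 0.463 and 0.283 in cluster 5 and 36.1, 35.1 and 44.7 in cluster 1 (log2 fold change -6.17 ± 0.61, adjusted p = 0.0166). *Adamdec1*, a metalloprotease of the gut, had 164.97, 53.2 and 68.2 in cluster 5 and 2301, 2179 and 1896 in cluster 1 (log2 fold change -4.73 ± 0.30, adjusted p = 0.00839). *Fgf10*, a ligand that mesenchyme sends to epithelium, had 6.63, 8.53 and 6.77 and 127.3, 180.9 and 285.9 (log2 fold change -4.75 ± 0.18, adjusted p = 0.00489). Its cluster 5 levels lay within a narrow range, and its cluster 1 levels differed between the strains. *Bmp5*, a BMP ligand, had 22.1, 4.34 and 6.39 in cluster 5 and 154.6, 162.7 and 171.7 in cluster 1 (log2 fold change -4.67 ± 0.46, adjusted p = 0.0166). *Cxcl13*, the chemokine that attracts B cells, measured 13.1, 4.79 and 0.629 and 158.7, 131.3 and 74.05 (log2 fold change -5.098 ± 0.65, adjusted p = 0.032). For *Frzb*, a secreted WNT inhibitor, the levels were 8.89, 2.85 and 0.412 and 80.5, 70.7 and 58.1 (log2 fold change -5.19 ± 0.78, adjusted p = 0.0482). This call was lost without the block (adjusted p = 0.0842), with at least 3 cells per sum (0.167) and without the 2 PdgfrbGFP plates of fewest cells (0.0655). In all of these genes cluster 1 was higher in each strain, and for *Frzb* and *Cxcl13* the cluster 5 level was highest in PdgfrbGFP and lowest in PdgfraGFP cells.

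Of the rest, *Edil3*, an integrin-binding matrix protein, had 4.33, 4.30 and 8.24 in cluster 5 and 102.4, 180.2 and 116.01 in cluster 1 (log2 fold change -5.19 ± 0.40, adjusted p = 0.0119). *Pdlim3*, a protein of the actin cytoskeleton, had 8.35, 6.87 and 0.514 and 116.5, 148.2 and 79.996 (log2 fold change -4.88 ± 0.69, adjusted p = 0.0391). *Isl1*, a LIM homeodomain factor, had 2.61, 1.27 and 0.0545 and 39.5, 51.95 and 24.9 (log2 fold change -5.94 ± 0.89, adjusted p = 0.0478). The last 3 genes of the group encode a membrane trafficking protein, a secreted peptide and a lactate receptor. *Syt13*, of the synaptotagmin family, had 4.63, 1.597 and 0.660 and 91.8, 63.3 and 74.7 (log2 fold change -5.88 ± 0.54, adjusted p = 0.014). *Enho*, which encodes the peptide adropin, had 2.44, 0.749 and 0.106 and 46.8, 46.5 and 25.8 (log2 fold change -5.76 ± 0.53, adjusted p = 0.0145). *Hcar1* had 3.16, 0.302 and 7.28 and 41.7, 39.9 and 50.5 (log2 fold change -5.22 ± 0.61, adjusted p = 0.0248).

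**Figure D2:**
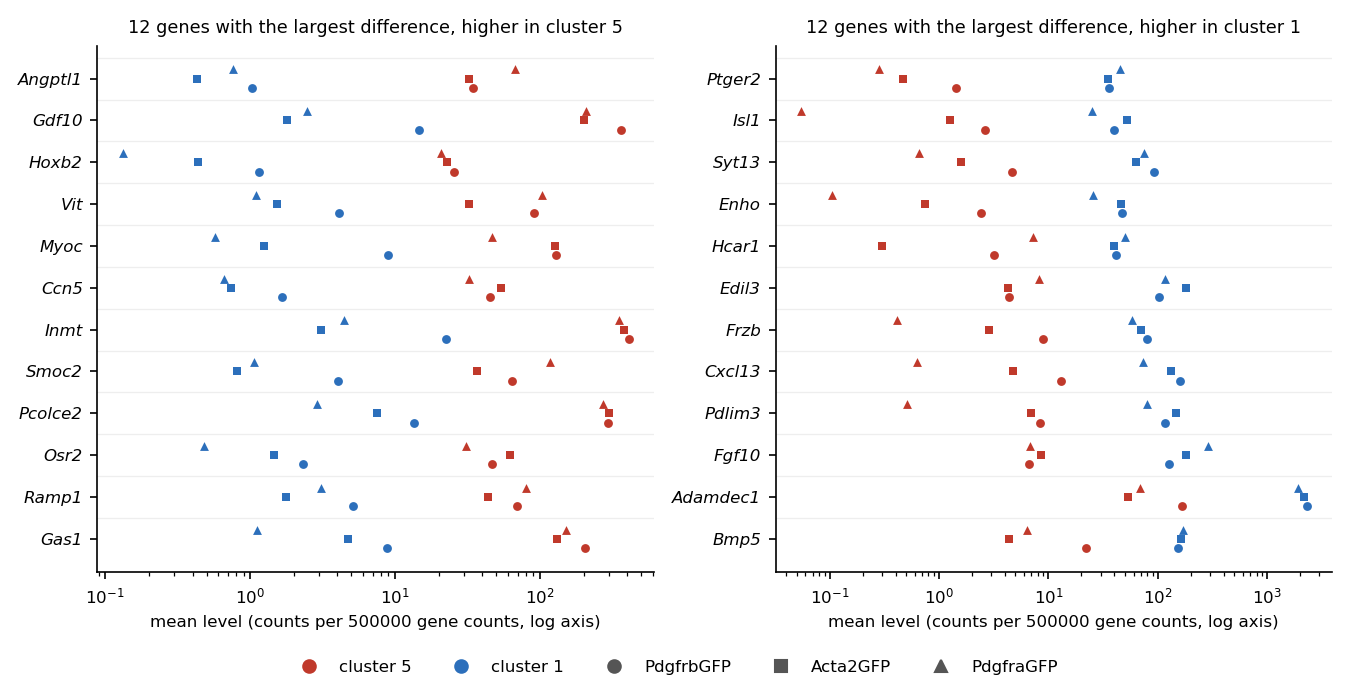
Mean level per strain in counts per 500000 (log axis) of the 12 called genes with the largest difference in each direction among those with a level of at least 20 in each strain of the higher cluster, with cluster 5 in red, cluster 1 in blue and the marker shape giving the strain. In every one of the 24 genes the 3 levels of the higher cluster lie above the 3 of the lower cluster, and for most genes the lower cluster's level is highest in PdgfrbGFP cells.

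BMP signals drive differentiation towards the crypt surface. A list of BMP-type ligands, which also names the proteinase gene *Bmp1*, had 11 genes tested. Of these, 1 was higher in cluster 5 (*Gdf10*) and 3 were higher in cluster 1 (*Bmp4*, *Bmp5* and *Bmp7*). The median log2 fold change was -0.79, against -0.02 over all genes tested. *Bmp4* had levels of 253.3, 379.4 and 283.5 in cluster 5 and 776, 859.7 and 786 in cluster 1 (log2 fold change -1.34 ± 0.16, adjusted p = 0.0266), and *Bmp7* had 5.20, 0.905 and 0.386 and 62.8, 40.8 and 12.7 (log2 fold change -4.83 ± 0.51, adjusted p = 0.0192). The call of *Bmp7* was lost without the strain as a block. *Bmp2* had 16.1, 7.19 and 21.7 and 32.8, 13.4 and 19.1, which overlap, and was not called (log2 fold change -0.79 ± 0.48, adjusted p = 0.617). Of 12 BMP and activin antagonists, only *Smoc2* was called, and 8 had a positive fold change (median 0.66). The 7 BMP response genes, transcribed when the pathway is active, all had a negative fold change (median -1.05), and none was called. The 2 named by their mean level were *Id3*, with 167.5, 109.2 and 155.4 and 249.6, 243.5 and 185.04 (log2 fold change -0.71 ± 0.21, adjusted p = 0.253), and *Id2*, with 26.4, 17.4 and 27.97 and 29.2, 33.1 and 33.97 (log2 fold change -0.46 ± 0.24, adjusted p = 0.554). *Id3* passed the threshold with DESeq2 (adjusted p = 0.047) and with plates in place of strains (0.013).

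WNT signals maintain the stem cells of the crypt base. Among 9 WNT ligands only *Wnt4* was called, with levels of 0.913, 0.349 and 0.571 in cluster 5 and 17.4, 17.7 and 24.2 in cluster 1 (log2 fold change -5.52 ± 0.59, adjusted p = 0.0195). *Wnt2b* had 28.5, 23.1 and 75.4 and 65.3, 103.7 and 128.5 (log2 fold change -1.38 ± 0.30, adjusted p = 0.122), and *Wnt2* had 11.8, 21.4 and 3.49 and 39.2, 43.8 and 8.26 (log2 fold change -0.89 ± 0.30, adjusted p = 0.323), and neither passed the threshold in this fit. *Wnt2b* passed it with DESeq2 and with plates in place of strains, which are 2 of 13 alternatives. Of 7 secreted WNT inhibitors 1 was higher in cluster 5 and 3 were higher in cluster 1. *Sfrp4*, which was higher in cluster 5, had 28.01, 21.996 and 13.6 against 2.96, 3.56 and 6.05 (log2 fold change 3.16 ± 0.43, adjusted p = 0.035). The inhibitors higher in cluster 1 were *Frzb*, *Sfrp1*, with 300.9, 321.2 and 142.8 and 609.7, 486 and 574 (log2 fold change -1.11 ± 0.16, adjusted p = 0.0429), and *Dkk3*, with 213.04, 190.8 and 158.6 and 405.04, 378.4 and 308.96 (log2 fold change -0.98 ± 0.12, adjusted p = 0.025). The calls of *Sfrp4* and *Sfrp1* were both lost with each cell thinned to 50000 counts (adjusted p = 0.0990 and 0.0644) and with limma on mean levels (0.0983 and 0.0811). That of *Sfrp4* was also lost with plates in place of strains (0.137), without plate 075s (0.0839) and without the 2 PdgfrbGFP plates of fewest cells (0.0694). Its log2 ratio of levels was -0.69 in a plate of PdgfraGFP. That of *Sfrp1* was also lost without the block (0.0561). None of 5 R-spondins and LGR receptors was called, with *Rspo3*, an R-spondin that amplifies WNT signals, at 23.04, 24.3 and 19.2 and 11.7, 25.98 and 8.87 (log2 fold change 0.77 ± 0.41, adjusted p = 0.567) and *Rspo1* at 13.8, 1.97 and 14.6 and 0.776, 2.90 and 2.45 (log2 fold change 2.31 ± 1.80, adjusted p = 0.712). Nor was any of 11 Frizzled and LRP receptors or of 9 WNT target genes, with medians of -0.01 and 0.17.

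The genes by which the study describes the crypt axis number 14, all tested, and were chosen by the study partly on these cells. Of these, 4 were higher in cluster 1 (*Tnc*, *Bmp5*, *Bmp7* and *Sfrp1*) and 0 were called higher in cluster 5. *Tnc*, the matrix protein tenascin C, had 109.4, 59.4 and 48.4 in cluster 5 and 529, 552 and 546 in cluster 1 (log2 fold change -3.08 ± 0.30, adjusted p = 0.0166). *Cd34*, a sialomucin of stromal progenitors, had 981, 1174 and 878 and 540.0, 712 and 533. Its levels did not overlap between clusters, but its adjusted p was 0.0682 (log2 fold change 0.67 ± 0.12). It was higher in cluster 5 in 7 of 7 plates. It passed the threshold with DESeq2 (adjusted p = 0.0015), with no filter (0.0374), with plates in place of strains (0.00038), with limma (0.0142), with thinned cells (0.0074) and without PdgfraGFP (0.032). *Foxl1*, the forkhead factor of subepithelial telocytes, had 1.69, 0.606 and 0.143 and 22.02, 9.999 and 2.01 (log2 fold change -3.95 ± 0.69, adjusted p = 0.0682). *Pdgfra* overlapped, with 262.5, 268.8 and 176.1 and 155.2, 187.4 and 229.9 (log2 fold change 0.44 ± 0.17, adjusted p = 0.384), and so did *Ptgs2*, which encodes the prostaglandin synthase COX-2, with 29.9, 28.5 and 42.9 and 45.5, 15.8 and 3.49 (log2 fold change 1.29 ± 1.17, adjusted p = 0.762). The WNT receptor genes *Fzd1* (log2 fold change -0.86 ± 0.22, adjusted p = 0.184) and *Fzd4* (log2 fold change 1.47 ± 0.45, adjusted p = 0.266) had opposite signs and were not called. DESeq2 called both (adjusted p = 0.0098 and 0.0079) and the fit on plates called *Fzd1* (0.0258). *Il1rl1*, the receptor of interleukin-33, was at or under a level of 1.67 in all 6 samples (log2 fold change -0.50 ± 0.93, adjusted p = 0.909), and the signs of *Il1rl1* and *Ptgs2* change with the processing.

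Fibroblast growth factors and Hedgehog signals pass between epithelium and mesenchyme. Of 12 FGF ligands and receptors tested, *Fgf9* was higher in cluster 5, with 14.4, 28.5 and 13.5 and 1.04, 0.814 and 0.192 (log2 fold change 5.34 ± 0.66, adjusted p = 0.0293), and 3 were higher in cluster 1. Besides *Fgf10* these were the receptors *Fgfr2*, with 25.1, 27.8 and 55.8 and 133.02, 113.9 and 182.4 (log2 fold change -2.02 ± 0.22, adjusted p = 0.0194), and *Fgfr4*, with 0.284, 0.0537 and 0.0424 and 13.6, 10.5 and 21.7 (log2 fold change -7.36 ± 0.98, adjusted p = 0.035). The list thus held large differences of both signs, from -7.36 to 6.36. Of 11 Hedgehog pathway genes 3 were higher in cluster 5, namely *Gas1*, the co-receptor *Boc* (log2 fold change 1.87 ± 0.27, adjusted p = 0.0435) and *Hhip* (log2 fold change 1.65 ± 0.21, adjusted p = 0.0323), which binds and blocks Hedgehog ligands. *Ptch1*, the Hedgehog receptor, was higher in cluster 1, with 50.99, 97.6 and 66.4 in cluster 5 and 108.6, 196.02 and 140.2 in cluster 1 (log2 fold change -1.15 ± 0.18, adjusted p = 0.0485). With sums per plate in place of strains *Ptch1* (adjusted p = 0.252) and *Boc* (0.0997) were no longer called.

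Other pathways gave between 0 and 3 calls each. *Egfr*, the EGF receptor, was higher in cluster 5 (log2 fold change 1.25 ± 0.18, adjusted p = 0.0433), among 9 genes of the EGF family, and its call was lost with plates in place of strains (adjusted p = 0.0502), with limma (0.117), with thinned cells (0.0954), with at least 3 cells per sum (0.0691) and without plate 075s (0.0927). Of 16 VEGF and angiopoietin-like genes, *Angptl1* was higher in cluster 5, and the neuropilins *Nrp1* (log2 fold change -1.798 ± 0.16, adjusted p = 0.0131) and *Nrp2* (log2 fold change -1.99 ± 0.21, adjusted p = 0.0196), co-receptors for VEGF and semaphorins, were higher in cluster 1. *Sema3f*, a ligand of neuropilins, was also higher in cluster 1, with 3.78, 1.07 and 0.422 and 30.3, 17.5 and 18.8 (log2 fold change -4.82 ± 0.51, adjusted p = 0.0191), and was the only gene called among 10 semaphorins and plexins. In the IGF system *Igfbp6* was higher in cluster 5 (log2 fold change 1.74 ± 0.14, adjusted p = 0.0124) and *Igfbp3* in cluster 1, both of them secreted IGF-binding proteins. The levels of *Igfbp3* were 93.5, 24.5 and 47.6 and 1188, 1142 and 1048 (log2 fold change -4.66 ± 0.42, adjusted p = 0.0131). *Tgfbi*, a matrix protein induced by TGF-beta, was the only call among 12 TGF-beta genes (log2 fold change 1.695 ± 0.19, adjusted p = 0.0225). None of 6 PDGF ligands and receptors was called, and *Pdgfrb* had 226.6, 85.99 and 93.4 and 271.4, 151.4 and 130.8 (log2 fold change -0.46 ± 0.15, adjusted p = 0.273).

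Prostaglandin and retinoid genes were called in both directions. *Ptgis*, the prostacyclin synthase, was higher in cluster 5, with 234.3, 259.01 and 127.6 and 51.9, 83.1 and 15.5 (log2 fold change 2.36 ± 0.18, adjusted p = 0.0119), while the prostaglandin E2 receptor *Ptger2* was higher in cluster 1. Of 15 prostaglandin genes 1 was called higher in cluster 5 and 2 were called higher in cluster 1. Of 12 retinoid genes 1 was called higher in cluster 5 and 2 were called higher in cluster 1. *Rdh10*, a dehydrogenase that turns retinol to retinal, had 12.4, 13.2 and 16.7 and 92.6, 82.6 and 57.7 (log2 fold change -2.47 ± 0.33, adjusted p = 0.035), and *Rarres2*, which encodes the chemoattractant chemerin, was likewise higher in cluster 1 (log2 fold change -1.001 ± 0.13, adjusted p = 0.035), with 33.6% of its exon bases shared with *Lrrc61*.

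Of 18 chemokines and chemokine receptors tested, 2 were called higher in cluster 5 and 4 higher in cluster 1. *Ackr4*, an atypical receptor that takes up the chemokines CCL19 and CCL21, had 202.2, 337.1 and 273.9 in cluster 5 and 13.6, 9.06 and 3.67 in cluster 1 (log2 fold change 5.37 ± 0.48, adjusted p = 0.0132). *Ackr2*, a scavenger of inflammatory CC chemokines, was called higher in cluster 5 (log2 fold change 4.601 ± 0.52, adjusted p = 0.0233), although its levels of 24.4, 39.2 and 1.14 and 2.16, 1.29 and 0.150 overlap between strains. The call was lost with limma (adjusted p = 0.144), without the strain as a block (0.126) and with at least 3 cells per sum (0.117). The 4 genes higher in cluster 1 were all chemokines. *Cxcl12*, the ligand of CXCR4, had 379.5, 370.3 and 340.6 in cluster 5 and 1258, 1751 and 1154 in cluster 1 (log2 fold change -1.904 ± 0.13, adjusted p = 0.0103), and *Cxcl13*, *Cxcl14* (log2 fold change -2.57 ± 0.36, adjusted p = 0.04) and *Ccl8* (log2 fold change -4.29 ± 0.60, adjusted p = 0.0387) were called with it. The levels of *Cxcl14*, 21.96, 1.20 and 7.12 and 68.1, 13.5 and 62.5, overlap between strains, and its call was lost without the block (adjusted p = 0.58), with plates in place of strains (0.0805), with at least 3 cells per sum (0.931) and without the 2 PdgfrbGFP plates of fewest cells (0.136). *Ccl8* belongs to a family of similar genes, for which the counting could divide reads.

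Some complement genes, of a protein cascade of innate immunity, were called. *C3*, the central complement component, had 1454, 1323 and 1269.7 in cluster 5 and 227.9, 256.2 and 185.7 in cluster 1 (log2 fold change 2.63 ± 0.11, adjusted p = 0.00489), which is with that of *Fgf10* the smallest adjusted p of the comparison. *C7*, of the membrane attack complex, had 103.3, 77.98 and 92.5 and 5.77, 2.24 and 3.84 (log2 fold change 4.67 ± 0.38, adjusted p = 0.0124). *C4b* was higher in cluster 1 (log2 fold change -1.08 ± 0.13, adjusted p = 0.027) while its levels, 235.7, 132.2 and 229.4 and 441.6, 230.03 and 433.8, overlapped between strains. Its call was lost without the strain as a block. Of 20 complement genes, with a median log2 fold change of -0.02, 3 were called higher in cluster 5 and 1 was called higher in cluster 1.

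Markers of stromal progenitors and of trophocytes, the CD81-positive fibroblasts known from the intestinal submucosa, were called higher in cluster 5 in 5 of 15 cases and lower in 2. Over all genes tested these shares were 0.817% and 0.805%. *Cd81*, a tetraspanin, had 577, 631 and 376.05 and 61.7, 53.6 and 29.4 (log2 fold change 3.41 ± 0.20, adjusted p = 0.00839), and *Pi16*, a marker of adventitial fibroblasts, had 370.4, 541 and 116.7 and 59.3, 42.8 and 3.26 (log2 fold change 4.02 ± 0.61, adjusted p = 0.049). With *Ackr4*, *C3* and *Dpt* these make up the 5, and *Adamdec1* and *Sfrp1* are the 2 that were higher in cluster 1. The calls of *Pi16*, *Dpt* and *Sfrp1* were lost without the strain as a block. That of *Pi16* was also lost without the 2 PdgfrbGFP plates of fewest cells. Of 22 markers of apex fibroblasts and telocytes, 5 were higher in cluster 1 (*Edil3*, *Foxf2*, *Bmp5*, *Bmp7* and *Frzb*) and 2 in cluster 5, and the median was -1.27. The 2 were *Fgf9* and *F3*, which encodes tissue factor and had 180.8, 240.7 and 123.2 and 45.7, 38.1 and 33.1 (log2 fold change 2.31 ± 0.24, adjusted p = 0.0184). Of the 5, *Edil3* and *Frzb* did not mark the apex in these cells. Their mean levels were 1.24 and 2.49 in cluster 6 and 2.85 and 3.58 in cluster 2, the clusters nearest the apex.

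**Figure D3:**
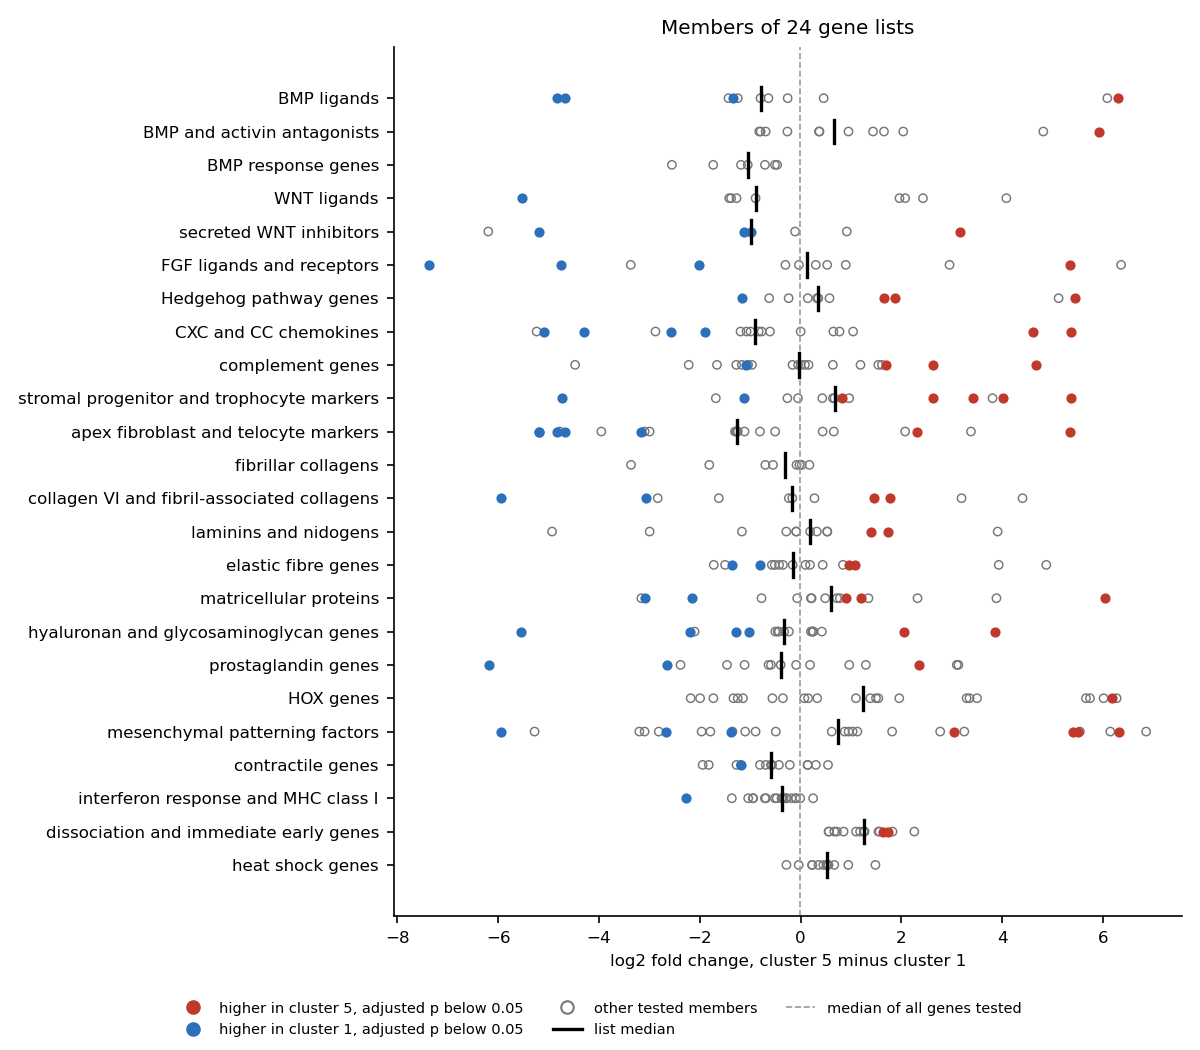
Log2 fold change (cluster 5 minus cluster 1) of each tested member of 24 gene lists, with members at an adjusted p below 0.05 filled in red (higher in cluster 5) or blue (higher in cluster 1), the list median as a black bar and the median of all genes tested as a dashed line. Called members of both signs occur among the BMP ligands, the chemokines and the patterning factors, while all 16 dissociation and immediate early genes lie to the right of 0 and all 7 BMP response genes to the left.

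Calls among the matrix genes had both signs. None of 8 fibrillar collagens was called. *Col1a1* had levels of 1972, 1747 and 2307 in cluster 5 and 2421, 1603 and 2099 in cluster 1 (log2 fold change 0.02 ± 0.13), a value near 0 whose sign changes with the processing, and *Col3a1* had 2262, 2401 and 2870.3 and 2819, 2626 and 2951 (-0.08 ± 0.12). Of 11 collagen VI and fibril-associated collagen genes, *Col6a3* (log2 fold change 1.77 ± 0.16, adjusted p = 0.0131) and *Col14a1* (log2 fold change 1.46 ± 0.12, adjusted p = 0.0124) were higher in cluster 5. *Col6a3* had 678, 784 and 633 and 243.1, 196.6 and 218.1, without overlap. In the same list *Col6a5* and *Col12a1* were higher in cluster 1, with *Col12a1* at 45.9, 59.7 and 24.6 and 259.6, 425.4 and 399.8 (log2 fold change -3.06 ± 0.36, adjusted p = 0.0248) and *Col6a5* at 1.07, 0.515 and 0.0584 and 41.3, 27.8 and 10.8 (log2 fold change -5.94 ± 0.52, adjusted p = 0.0131). *Col6a3* and *Col6a5* both encode chains of collagen VI. *Col8a1*, a network collagen, was the only call among 10 basement membrane and network collagens, with 244.2, 246.4 and 232.5 and 33.4, 30.5 and 62.4 (log2 fold change 2.65 ± 0.38, adjusted p = 0.0416). Of 13 laminins and nidogens *Lamb2* (log2 fold change 1.74 ± 0.15, adjusted p = 0.0131) and *Nid1* (log2 fold change 1.402 ± 0.12, adjusted p = 0.0124) were higher in cluster 5 and none in cluster 1.

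Among 17 elastic fibre genes *Mfap5* (log2 fold change 0.95 ± 0.13, adjusted p = 0.0381) and *Fbln2* (log2 fold change 1.08 ± 0.15, adjusted p = 0.0391) were higher in cluster 5 and *Fbln5* (log2 fold change -1.37 ± 0.14, adjusted p = 0.0188) and *Emilin1* (log2 fold change -0.81 ± 0.12, adjusted p = 0.0433) in cluster 1. *Emilin1* had 222.97, 124.5 and 156.5 and 362.9, 185.5 and 328.3, which overlap. The calls of *Mfap5* and *Emilin1* were lost without the strain as a block. Among 16 matricellular proteins, *Ccn5*, *Tnxb* (log2 fold change 1.205 ± 0.13, adjusted p = 0.0184) and *Sparcl1* (log2 fold change 0.90 ± 0.13, adjusted p = 0.0471) were higher in cluster 5. The call of *Sparcl1* was likewise lost without the block. *Postn*, or periostin, had 316.2, 335.2 and 401.9 in cluster 5 and 1601, 1974 and 1931 in cluster 1 (log2 fold change -2.16 ± 0.15, adjusted p = 0.0103), and with *Tnc* made up the 2 higher in cluster 1. Of 11 small leucine-rich proteoglycans 10 had a positive fold change, but only *Ecm2* was called (log2 fold change 1.92 ± 0.16, adjusted p = 0.0127), with 147.9, 171.5 and 167.4 and 44.9, 48.5 and 40.5. *Has1*, a hyaluronan synthase (log2 fold change 3.86 ± 0.45, adjusted p = 0.0248), and *Gpc3*, a glypican (log2 fold change 2.05 ± 0.29, adjusted p = 0.0402), were higher in cluster 5 among 17 hyaluronan and glycosaminoglycan genes. The call of *Has1* was lost with plates in place of strains (adjusted p = 0.0579) and with at least 3 cells per sum (0.419). The large proteoglycan *Vcan* (log2 fold change -1.28 ± 0.13, adjusted p = 0.0178), the syndecans *Sdc1* (log2 fold change -2.198 ± 0.27, adjusted p = 0.027) and *Sdc2* (log2 fold change -1.02 ± 0.12, adjusted p = 0.0248) and the link protein gene *Hapln1* (log2 fold change -5.55 ± 0.74, adjusted p = 0.035) were higher in cluster 1. *Pcolce2* was the only call among 7 lysyl oxidases and procollagen enhancers. No call was made among 13 metalloproteinases and TIMPs, where *Mmp2* (log2 fold change -0.47 ± 0.12, adjusted p = 0.192) and *Timp2* (log2 fold change 0.50 ± 0.13, adjusted p = 0.184) are named by their mean level, nor among 20 ADAMTS proteases, where *Adamts2* (log2 fold change -0.20 ± 0.12, adjusted p = 0.617) and *Adamtsl4* (log2 fold change -0.43 ± 0.26, adjusted p = 0.617) are. With plates in place of strains *Mmp2* and *Timp2* passed the threshold (adjusted p = 0.0034 and 0.011), as did *Timp2* with DESeq2 (0.047).

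Transcription factors that pattern mesenchyme were called in both directions. *Tcf21*, a basic helix-loop-helix factor of visceral mesenchyme, had levels of 112.1, 94.5 and 103.8 in cluster 5 and 585, 671 and 679 in cluster 1 (log2 fold change -2.67 ± 0.14, adjusted p = 0.00802). *Ebf1*, a factor of stromal and adipogenic lineages, showed the opposite order, with 119.5, 126.6 and 194.7 and 8.55, 6.09 and 2.48 (log2 fold change 5.41 ± 0.59, adjusted p = 0.0198). Levels varied little between strains within a cluster for *Tcf21*. Of 28 patterning factors tested, *Ebf1*, *Osr2*, *Zfhx4* (log2 fold change 3.04 ± 0.38, adjusted p = 0.0307) and *Meox2* (log2 fold change 6.31 ± 0.87, adjusted p = 0.0378) were higher in cluster 5 and *Tcf21*, *Isl1* and *Zeb2* (log2 fold change -1.39 ± 0.14, adjusted p = 0.0166) in cluster 1. The calls of *Zfhx4* and *Meox2* were lost without the strain as a block, and also without the 2 PdgfrbGFP plates of fewest cells. Among 8 forkhead factors, *Foxf2* was higher in cluster 1, with 5.003, 4.57 and 5.13 and 36.2, 44.8 and 47.1 (log2 fold change -3.16 ± 0.29, adjusted p = 0.0137), and *Foxp2* in cluster 5 (log2 fold change 1.53 ± 0.22, adjusted p = 0.0433), a call that the fit on plates did not keep (adjusted p = 0.105).

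The share of single cells with at least 1 count was taken for *Gdf10*, *Fgf10* and *Tcf21*, which were chosen for it after their values were seen. With each cell thinned to 50000 counts on genes, which left out 3 cells below that number, *Gdf10* was counted in 73.5, 50.8 and 43.8% of the cluster 5 cells of the strains and in 41.7, 19.7 and 16.9% of the cluster 1 cells. Without thinning these shares were 90.9, 65.6 and 64.1% and 69.9, 33.9 and 41.5%. *Fgf10* was counted in 37.4, 23.4 and 20.3% and 69.4, 78.6 and 73.8% of thinned cells (74.1, 57.03 and 48.4% and 88.1, 86.2 and 83.1% unthinned). For *Tcf21* the shares were 95.9, 86.7 and 73.4% and 98.7, 100 and 100% (99.5, 96.1 and 96.9% and 98.3, 100 and 100% unthinned), so a gene that is lower in cluster 5 was still counted in many of its cells. Reads carry no molecular identifiers, so these are shares of cells with a read.

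HOX genes, which carry positional identity along the body axis and lie in groups of neighbouring genes, gave 1 call among 24 tested, with a median of 1.24. *Hoxb2* (chr11:96350525-96354012, GRCm38) had levels of 25.4, 22.9 and 20.9 in cluster 5 and 1.16, 0.439 and 0.132 in cluster 1 (log2 fold change 6.18 ± 0.93, adjusted p = 0.0479), and without the PdgfrbGFP plates of 18 and 19 and of 11 and 12 cells its adjusted p was 0.0504. The neighbouring HOX genes on chromosome 11, *Hoxb3* to *Hoxb7*, were chosen after their values were seen, and none of these was called in the strain fit with the block. *Hoxb3* (chr11:96323326-96347930) had 3.37, 3.04 and 21.6 and 0.134, 0.0427 and 0.0706 (log2 fold change 6.27 ± 1.06, adjusted p = 0.0649), *Hoxb4* (chr11:96318267-96321638) had 1.94, 1.12 and 2.21 and 0.0331, 0.0137 and 0.0243 (log2 fold change 5.66 ± 1.07, adjusted p = 0.0838), and *Hoxb5* (chr11:96303336-96306121) had 6.30, 7.81 and 4.57 and 0.429, 0.303 and 0 (log2 fold change 5.74 ± 1.42, adjusted p = 0.164). *Hoxb6* (chr11:96292476-96301569) had 8.99, 4.71 and 5.92 and 0.254, 0.0813 and 0.0378 (log2 fold change 6.01 ± 0.96, adjusted p = 0.054), and *Hoxb7* (chr11:96286623-96290162) had 6.93, 3.69 and 6.36 and 0.439, 0.654 and 0.0830 (log2 fold change 3.500 ± 1.72, adjusted p = 0.53). All 6 genes had higher levels in cluster 5 in each strain. In the fit without the strain as a block *Hoxb3*, *Hoxb4* and *Hoxb6* passed the threshold (adjusted p = 0.0177, 0.0435 and 0.0213). DESeq2, whose calls on simulated data were often false, called all 5 of these neighbours. *Hoxb4*, *Hoxb5* and *Hoxb6* were called both with plates in place of strains and with limma. An antisense gene, *Hoxb3os*, shares 27.3% of the exon bases of *Hoxb2* and 52.9% of those of *Hoxb3*, so reads on the shared bases cannot be assigned to one gene or the other without strand. *Hoxb3os* was itself called higher in cluster 5 (log2 fold change 6.12 ± 0.86, adjusted p = 0.039).

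Contractile, cell cycle and interferon genes held 1 call each, among 15, 10 and 19 genes, against 1.62% of all genes tested. *Tpm1*, a tropomyosin, was higher in cluster 1 (log2 fold change -1.19 ± 0.17, adjusted p = 0.0452) among 15 contractile genes with a median of -0.59. *Ccnd2*, a D-type cyclin, was higher in cluster 5 (log2 fold change 1.29 ± 0.18, adjusted p = 0.0406) among 10 cell cycle genes. Of 19 interferon response and MHC class I genes, 18 had a negative fold change (median -0.38), and *Ifitm1* was the only call, with 79.7, 73.6 and 81.2 in cluster 5 and 302.2, 357.3 and 339.9 in cluster 1 (log2 fold change -2.27 ± 0.16, adjusted p = 0.0103). None of 13 heat shock genes was called, with a median of 0.52. Those named by their mean level were *Hsp90ab1* (log2 fold change 0.23 ± 0.11, adjusted p = 0.494) and *Hsp90b1* (log2 fold change -0.28 ± 0.11, adjusted p = 0.404).

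Immediate early genes, which respond within minutes to stress and to tissue dissociation, had a positive log2 fold change in 16 of 16 cases, with a median of 1.26, and 2 were called. *Egr1*, an immediate early zinc finger factor, had 1227, 1148 and 1121 in cluster 5 and 601, 259.5 and 346.7 in cluster 1 (log2 fold change 1.63 ± 0.25, adjusted p = 0.0497). *Dusp1*, a phosphatase that shuts off MAP kinases, had 787, 667 and 695 and 381.3, 161.5 and 195.5 (log2 fold change 1.74 ± 0.25, adjusted p = 0.0445). *Fos*, a subunit of the AP-1 factor that was chosen after its values were seen, had 1095, 932 and 751 and 699, 314.2 and 323.7 and was not called (log2 fold change 1.26 ± 0.26, adjusted p = 0.109). The mean over cells of log2(level + 1), averaged over the 16 genes, was 6.72, 6.09 and 5.57 in cluster 5 and 5.50, 4.07 and 3.81 in cluster 1, and it was higher in cluster 5 in all 9 plates, 1 of them of the Cspg4dsRED strain. Plate 075s of the PdgfrbGFP strain stood apart in both clusters, at 8.23 and 7.69, while the other plates lay between 4.52 and 6.69 in cluster 5 and between 3.07 and 5.07 in cluster 1. Without that plate 0.821% of the genes tested were called higher in cluster 5 and 0.858% in cluster 1. Cells of cluster 5 also had a lower mitochondrial share of counts (0.844, 1.30 and 1.44% against 1.09, 1.46 and 1.73%). Median counts per cell were 289513, 190402 and 266955 in cluster 5 and 265754, 162062 and 304822 in cluster 1, and after thinning each cell to 50000 counts 1.66% and 1.57% of the genes tested were called. The part of the dissociation response in the other differences was not tested.

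**Figure D4:**
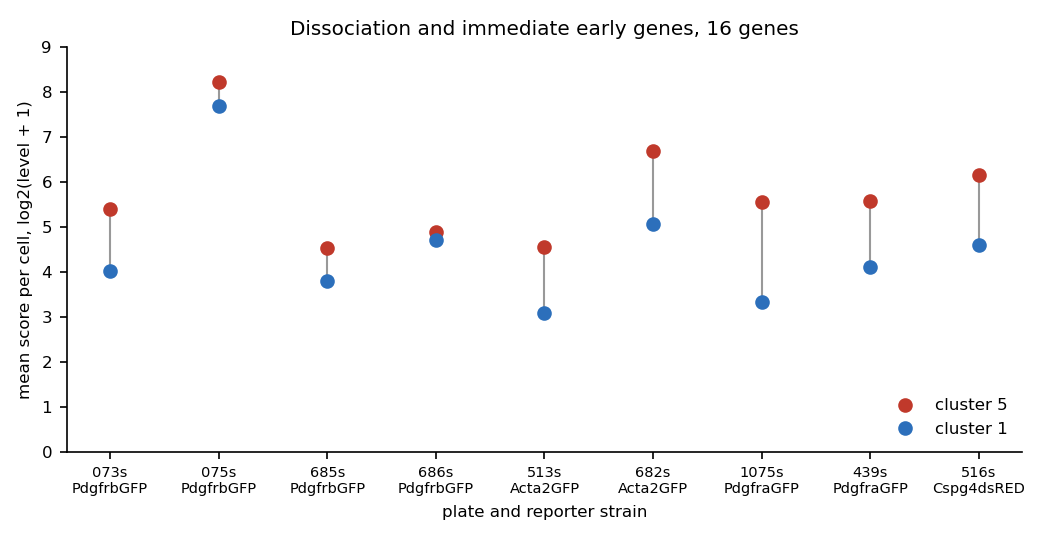
Mean per cell of the score of 16 dissociation and immediate early genes, log2(level + 1) averaged over the genes, in cluster 5 (red) and cluster 1 (blue) of each plate, with a grey line joining the clusters of a plate. Cluster 5 lies above cluster 1 in all 9 plates, and both clusters of plate 075s lie above every other plate.

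Promoters of 14 of these 16 genes were found in the RefSeq promoter table of GRCm38.p6, which holds 300 bases per gene, 250 before and 50 after the start site (the first listed site of each gene was used). The letters TGACGTNA, which include the cyclic AMP response element, were searched on both strands and occurred in 3 of the 14, or 21.4%, against 3.08% of all 27025 promoters and 5.07% of those of the genes tested. They occurred in 4 of 88 promoters (4.55%) of genes higher in cluster 5 and in 5 of 92 (5.43%) of genes higher in cluster 1, shares near that of the genes tested. The AP-1 letters TGANTCA occurred in 10 of the 88 (11.4%) and 5 of the 92 (5.43%), against 4.89% of the genes tested and 7.93% of all promoters, and in 0 of the 14. The TATA letters TATAAA occurred in 14 of the 88 (15.9%) and 13 of the 92 (14.1%), against 7.28% of the genes tested and 14.2% of all, and forkhead letters TGTTTAC in 1 and 3 (1.14% and 3.26%), against 2.59% and 3.55%. The matches are descriptions of the letters and name no bound factor. The 3 promoters with the first motif are shown 5′ to 3′ on the strand of the gene, because their genes belong to the list that lay wholly on 1 side, with the matched letters in capitals. The promoters are those of *Atf3* (chr1:191183284-191183583, minus strand), where the match starts 10 bases before the start site, and of *Btg2* (chr1:134079106-134079405, minus strand) and *Dusp1* (chr17:26508423-26508722, minus strand), where it lies farther upstream.
Atf3: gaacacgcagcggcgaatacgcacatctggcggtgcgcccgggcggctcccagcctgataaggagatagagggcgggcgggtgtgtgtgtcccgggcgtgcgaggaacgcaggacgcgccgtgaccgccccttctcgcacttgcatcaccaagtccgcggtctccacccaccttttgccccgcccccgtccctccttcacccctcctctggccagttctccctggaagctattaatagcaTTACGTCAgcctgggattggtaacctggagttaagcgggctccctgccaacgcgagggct
Btg2: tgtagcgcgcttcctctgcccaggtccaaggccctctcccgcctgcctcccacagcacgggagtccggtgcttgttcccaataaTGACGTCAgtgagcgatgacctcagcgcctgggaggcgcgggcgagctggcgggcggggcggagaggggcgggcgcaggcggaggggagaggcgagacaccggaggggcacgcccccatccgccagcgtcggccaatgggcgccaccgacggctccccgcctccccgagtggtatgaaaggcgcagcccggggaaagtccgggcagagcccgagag
Dusp1: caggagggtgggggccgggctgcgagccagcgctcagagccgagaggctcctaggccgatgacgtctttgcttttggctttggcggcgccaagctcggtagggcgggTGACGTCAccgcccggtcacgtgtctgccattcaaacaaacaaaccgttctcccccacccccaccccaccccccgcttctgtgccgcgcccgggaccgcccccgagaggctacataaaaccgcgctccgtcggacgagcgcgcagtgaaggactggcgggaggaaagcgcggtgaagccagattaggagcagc
Both of the genes that follow were chosen after their values were seen. *Atf3*, a stress-induced factor, had levels of 134.7, 89.6 and 51.9 in cluster 5 and 49.9, 5.99 and 13.2 in cluster 1 (log2 fold change 2.26 ± 0.63, adjusted p = 0.212), while *Btg2*, an antiproliferative gene, had 236.8, 168.8 and 149.4 and 117.5, 38.8 and 24.96 (log2 fold change 1.82 ± 0.35, adjusted p = 0.0856). Of the 3 genes only *Dusp1* was called in the strain fit with the block. DESeq2 called all 3 (adjusted p = 1.1e-06 for *Btg2* and 0.00013 for *Atf3*), though its calls on simulated data were often false. *Btg2* was also called with no filter (0.0461), with limma (0.0314), with thinned cells (0.0273) and without PdgfrbGFP (0.0446).

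The called genes did not all follow the same course over the 5 fibroblast clusters, which the study orders from base to apex as 7, 5, 1, 6 and 2. Mean levels over the strains with at least 10 cells are given here as a description. Some genes were at a like level in cluster 7, as *C3* with 1426, 1349, 223.3, 17.2 and 36.2, and *Pcolce2* with 390.6, 289.2, 7.96, 2.52 and 4.46. Others were high in cluster 5 alone of the 5. *Gdf10* had 11.7, 256.2, 6.27, 2.38 and 7.38, and *Inmt* had 37.2, 380.7, 9.92, 2.68 and 9.91. *Sfrp4*, in contrast, was highest in cluster 7, with 86.6 against 21.2 in cluster 5 and 4.19 in cluster 1.

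Genes higher in cluster 1 also divided. *Bmp5* went on to higher levels at the apex, with 4.16, 10.9, 163.005, 618 and 683, and *Tnc* had 16.9, 72.4, 542, 421.4 and 1972. *Bmp4* was at a like level in clusters 1, 6 and 2 (807, 988 and 784) and lower in clusters 7 and 5 (141.004 and 305.4). By contrast *Edil3* was high in cluster 1 alone, with 1.55, 5.63, 132.9, 1.24 and 2.85, and so was *Frzb*, with 0.916, 4.05, 69.7, 2.49 and 3.58. *Fgf10* had 3.31, 7.31, 198.02, 53.5 and 5.35, *Tcf21* had 75.7, 103.5, 645, 161.04 and 245.7, and *Cxcl12* had 132.5, 363.5, 1388, 2160.1 and 224.9. Of these, *Cxcl12* peaked in cluster 6, which rests on 2 strains with 10 and 26 cells.

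**Figure D5:**
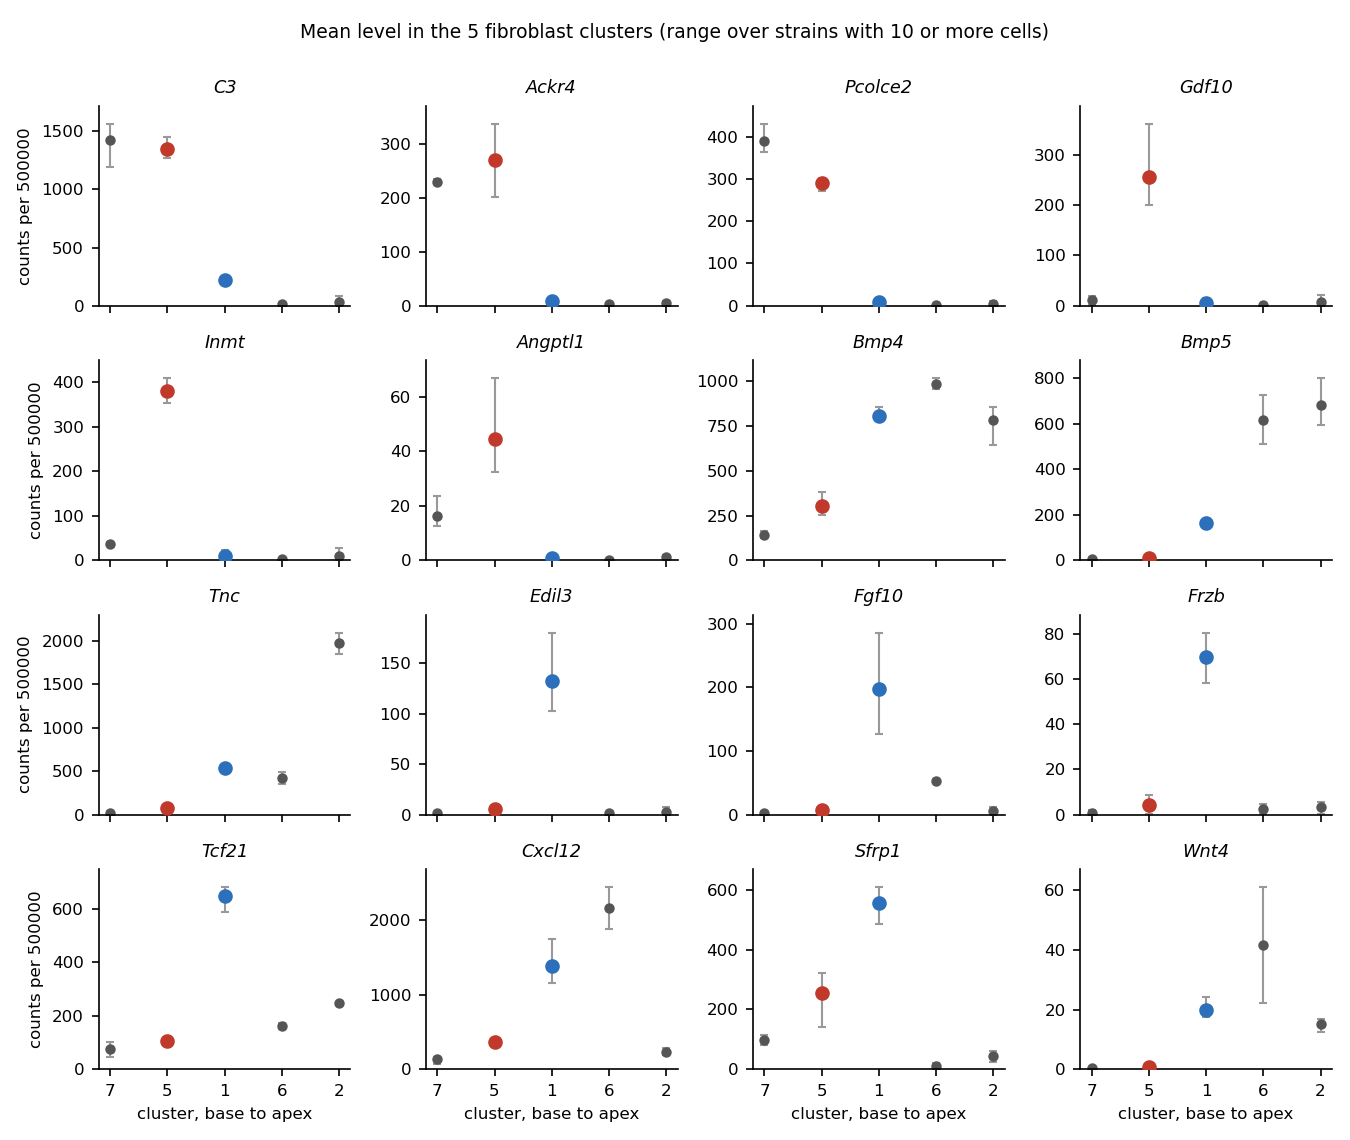
Mean level in counts per 500000 of 16 genes in the fibroblast clusters 7, 5, 1, 6 and 2, with bars from the lowest to the highest strain with at least 10 cells, cluster 5 in red and cluster 1 in blue. *Gdf10* and *Inmt* stand out in cluster 5 and *Edil3* and *Frzb* in cluster 1, while *C3* is high in clusters 7 and 5 and *Bmp5* rises from cluster 1 to clusters 6 and 2.

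Whether the difference between the clusters was the same in all strains could be tested for Acta2GFP (2 plates) against PdgfrbGFP (4 plates), with the plate as the unit. Of 13468 genes tested edgeR called 0, with 1.85% at an unadjusted p below 0.05, and DESeq2 called 9, of which 8 had the more positive difference in Acta2GFP cells. As a description, median log2 ratios of the levels of the genes higher in cluster 5 were 2.15, 2.15 and 2.21 in the 3 strains, and of the genes higher in cluster 1 -2.26, -2.55 and -2.25. The genes higher in cluster 1 had a median level of 20.96, 11.96 and 17.1 in cluster 5, and those higher in cluster 5 had 29.1, 28.6 and 21.5 in cluster 1. The plates of a strain may share a mouse, so this spread may be technical.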

How the data were processed

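The deposited table holds counts per gene that the authors made from SmartSeq2 libraries of single cells, which were sequenced as single reads, trimmed, aligned to GRCm38 (mm10) and counted with featureCounts of the Subread package. The study's reporting form gives trim galore 0.4.4, TopHat 2.1.1 run with Bowtie1 1.1.2 or Bowtie2 2.2.6, samtools 1.9 and featureCounts 1.4.6-p5. The strand setting of the counting is not given in the sources used here. The authors filtered the cells and clustered them with pagoda2 before the labels were made. The table has 46517 genes, of which 46005 were paired with a symbol, and 92 spike-in controls, which took 1.34% of the counts and entered neither library sizes nor tests.

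Each column was matched to its cell by title, and the strain and cluster were taken from the labels. Counts were summed per strain and cluster where at least 10 cells were present on both sides, filtered with filterByExpr, scaled by TMM and tested with edgeR 4.0.16 (quasi-likelihood test, R 4.3.3), with the strain as a block and Benjamini-Hochberg adjustment. The strain pairs the sums, since both clusters of a strain come from the same plates: deviations from the cluster means correlated at 0.144 (Acta2GFP), 0.175 (PdgfraGFP) and 0.241 (PdgfrbGFP) within a strain and at -0.161 to -0.0149 between strains, over 16280 genes. Deviations from a cluster mean cancel over its strains, so positive values within strains force negative ones between strains on average. The labels name no mouse, so p-values measure the spread between these strain sums, which also differ in reporter and, for Acta2GFP, in dissociation. Cells were not used as replicates. Of cluster 5 the sums held 220 (PdgfrbGFP), 128 (Acta2GFP) and 64 (PdgfraGFP) cells, 412 in all, and of cluster 1 they held 236, 174 and 65, 475 in all. The fit called 133 genes higher in cluster 5 and 131 higher in cluster 1. The counts per cell ranged from 47598 to 1494292, and reads carry no molecular identifiers. The scripts were tested on simulated data of this design. There edgeR missed every change at the smaller of the simulated folds and nearly all simulated differences between strains. DESeq2 made more false calls than edgeR. Its false calls outnumbered its true ones at the smaller fold and came near their number at the larger.

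Genes were named by this rule: in each direction the 12 largest log2 fold changes among called genes of the same direction in all 3 strains with a level of at least 20 in the higher cluster, up to 4 called members of each list by adjusted p (or, where none was called, the 2 with the highest mean level), all crypt axis genes of the study, and genes whose plates stood apart. The other called genes that are named, the neighbours of *Hoxb2* and some immediate early genes were chosen after their values were seen. Some genes that this rule names are not reported here. The members and lists were chosen with earlier results of these data known. Alternatives were DESeq2 1.42.0 with its size factors, upper-quartile factors, no filter, no block, plates as units, at least 3 cells per sum, limma 3.58.1 on log2 of the mean level plus a pseudocount of 1, thinned cells and each strain left out. DESeq2 p-values were rounded to 2 significant digits unless this crossed the threshold. RefSeq promoters (GRCm38.p6) and the GENCODE annotation gave sequences and exon overlaps.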

Additional observations from a re-analysis of the deposited data

Results flagged for a closer look

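The log2 ratio of levels (cluster 5 over cluster 1) was taken in each of 7 plates, and the highest or lowest plate stood far from the others, by Dixon's test at 0.568, in 13 named genes. With the scores 14 such results were found, and chance gives about 5% of the tests made, 1 for each of the named genes and 4 of scores. All 13 genes stood apart in 1 of the 2 PdgfrbGFP plates with the fewest cells of the 7, a plate of 18 and 19 cells and a plate of 11 and 12 cells, and the part of their size was not tested.

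In the plate of 11 and 12 cells the ratio was high for *C7* (7.51, against 3.48 to 5.12 in the other plates), *Foxp2* (5.02, against 0.62 to 1.82), *Lamb2* (4.21, against 1.37 to 1.96), *Ramp1* (5.31, against 3.26 to 4.08), *Rspo3* (4.81, against -0.79 to 1.55) and *Adamts2* (1.16, against -0.45 to -0.10). In the same plate it was low for *Ptch1* (-3.93, against -1.30 to 0.11) and *Atf3* (-2.38, against 1.08 to 3.54). In the plate of 18 and 19 cells the ratio was high for *Ecm2* (2.98, against 1.48 to 1.94) and *Tcf21* (-1.30, against -2.85 to -2.25). It was low there for *Has1* (-1.05, against 2.22 to 4.69), *Nrp1* (-3.08, against -1.84 to -1.03) and *Osr2* (0, against 3.26 to 5.08). *Has1* was thus called higher in cluster 5 while 1 plate had the opposite sign.

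The dissociation score of cluster 1 was 7.69 in plate 075s, far above the other 8 plates. For *Col1a1* every plate of Acta2GFP had a positive ratio (0.11 to 0.17) and every plate of PdgfrbGFP a negative one (-0.33 to -0.20), so that the means differed by 0.41. The interaction of strain and cluster in edgeR gave an unadjusted p of 0.00865 and an adjusted p of 1 over 13468 genes.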

How the results depend on the processing

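Each called gene kept its sign under every alternative in which it was tested. The share of tested genes called higher in cluster 5 and in cluster 1 was 0.817% and 0.805%, or 0.768% and 0.792% with a log2 fold change of at least 1. These 4 shares were 4.61%, 4.65%, 3.87% and 4.11% with DESeq2 and its size factors, 2.01%, 2.07%, 1.57% and 1.70% with plates in place of strains, and 0.229%, 0.150%, 0.222% and 0.144% with at least 3 cells per sum, which adds the Cspg4dsRED strain. They were 1.33%, 1.30%, 1.19% and 1.20% with limma on mean levels, and 1.66%, 1.57%, 1.47% and 1.42% with cells thinned to 50000 counts. With 1 strain left out they ranged from 0 to 0.759%, 0 to 0.703%, 0 to 0.742% and 0 to 0.676%, with the value of 0 without Acta2GFP. The cause of these shifts was not tested.

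Without the strain as a block for the pairing, 1.11% and 1.02% were called, and 86.4% of the genes called with it were called again. Of the 93 called genes named here 15 were lost without the block (*Ackr2*, *Bmp7*, *C4b*, *Cxcl14*, *Dpt*, *Emilin1*, *Foxp2*, *Frzb*, *Meox2*, *Mfap5*, *Pi16*, *Ptch1*, *Sfrp1*, *Sparcl1* and *Zfhx4*), and *Hoxb3*, *Hoxb4*, *Hoxb6*, *Ier2* and *Zfp36* were gained. With plates in place of strains *Boc*, *Cxcl14*, *Egfr*, *Foxp2*, *Has1*, *Ptch1* and *Sfrp4* were lost, and with at least 3 cells per sum 67 were. Of the 36 named genes that were not called, DESeq2 called 17, plates 10, limma 8, thinned cells 8 and no filter 6. *Cd34* and *Ier2* were among those gained in each of these 5, *Zfp36* and *Btg2* in each but that on plates, and *Fos* with DESeq2, limma and thinned cells. *Foxl1* was gained with DESeq2 and thinned cells, and *Wnt2b* with DESeq2 and plates. Of the strain difference DESeq2 called 9 genes and edgeR 0 (1.85% of 13468 genes at an unadjusted p below 0.05).

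The fits without plate 075s (0.821% and 0.858%) and without the 2 PdgfrbGFP plates of fewest cells (0.770% and 0.844%) were chosen after seeing the data. The first lost the calls of *Egfr*, *Sdc1* and *Sfrp4*, and the second those of *Cxcl14*, *Frzb*, *Hoxb2*, *Meox2*, *Pi16*, *Sfrp4* and *Zfhx4*, among the genes named here. Signs that changed belonged to genes that were not called. *Col1a1* was -0.168 with plates, -0.0118 with limma and -0.0773 to 0.190 with 1 strain left out. With 1 strain left out *Col3a1* was -0.149 to 0.0516 and *Tcf7l2* -0.0881 to 0.530. *Ptgs2* was -1.05 with plates and -0.0650 to 2.72 with 1 strain left out. *Il1rl1* was 0.112 with limma, 0.548 with thinned cells and -0.985 to 0.172 with 1 strain left out. *Lrp6* was 0.287 with plates, 0.354 with at least 3 cells, 0.000152 with limma and -0.348 to 0.00275 with 1 strain left out. *Tcf7l1* was 0.694 with plates, 0.253 with limma, 0.281 with thinned cells and -0.178 to 0.00428 with 1 strain left out.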

Other observations

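The Cspg4dsRED strain, with 13 cells of cluster 5 and 8 of cluster 1, was outside the comparison and gives values with no test. Of the genes called higher in cluster 5, 87.2% had a higher level in cluster 5 in these cells, against 45.2% of all genes tested. Of those called higher in cluster 1, 74.05% had a higher level in cluster 1, against 38.97%. Median log2 ratios were 2.47, -1.28 and, for all genes tested, 0. *Gdf10* had a level of 203.1 in cluster 5 and 0.325 in cluster 1, and *Inmt* had 446.2 in cluster 5 and was listed at 0 in cluster 1. *Adamdec1* had 1.59 and 1262, and *Bmp5* had 1.13 and 292.9. *Ccn5* and *Frzb* were listed at 0 in both clusters. These cells were clustered with the others, so they are no independent sample of the clusters.

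By the annotation 95.5% of the called genes are protein coding, and the rest include 4 antisense genes, 3 lincRNAs and 3 processed transcripts.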
